A study of Saccharomyces cerevisiae with 6 samples.

Results

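The antioxidant enzyme genes of budding yeast described here are the 10 genes CTT1, CTA1, SOD1, SOD2, TSA1, PRX1, TRX2, GPX1, GPX2 and CCP1, out of 6256 gene probes on each array. They were chosen by name, from what their products do, with no threshold on their values, but earlier results of these data were known at the time. For 9 of them the array's own symbol gave the probe, and PRX1 was found through its systematic name YBL064C, under which the array lists it. All 10 passed the filter on dim probes, which 6232 of the 6256 probes passed. All 10 were well above background in both channels on all 6 arrays, and no spot of theirs was saturated.

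Mot1 is an ATPase that removes TBP, the TATA-binding protein, from promoters, and the study asked which genes change when Mot1 is impaired and when a TBP variant lets cells live without it. RNA was compared between 4 strains of Saccharomyces cerevisiae, all named in the labels as parent strain AY138 carrying a plasmid and grown past selection on FOA, the drug that removes cells holding a URA3 plasmid. The bypass strains carried pTBP-F207L or pTBP-Y185C, the mot1-14 strain carried pMOT244, and the wild-type MOT1 strain (WT) carried pAV20. The cultures had no added oxidant: they were grown in rich medium (YPD) at 30 °C to an optical density of about 1.0. Each mutant was hybridised against WT on 2 two-colour arrays with the dyes exchanged. The labels give neither the chromosomal genotype of AY138 nor whether a mutant's arrays drew on different cultures. The spread behind each p-value is therefore that between arrays and may be technical. WT was the partner on all 6 arrays, no WT was set against WT, and how many cultures its RNA came from is not stated. Having 2 arrays per mutant limits the precision.

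Respiring cells form superoxide, which superoxide dismutases turn into hydrogen peroxide. Catalases break hydrogen peroxide down directly, whereas peroxiredoxins and glutathione peroxidases reduce it, and organic peroxides, with electrons that pass through thioredoxin or glutathione and come in the end from NADPH. Cytochrome c peroxidase does the same in the mitochondrial intermembrane space with electrons from cytochrome c. In yeast many of these genes are induced by oxidants through the factors Yap1 and Skn7, by general stress through Msn2 and Msn4, or on leaving glucose fermentation for respiration.

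All 10 genes rose against WT in TBP-F207L, in TBP-Y185C and in mot1-14. The median log2 ratio of mutant over WT over the 10 genes was 1.01 in TBP-F207L, 1.11 in TBP-Y185C and 0.91 in mot1-14, and the median over all genes tested lay within 0.01 of 0 in each. A gene was called when its adjusted p in limma's moderated test, over all genes tested, was under 0.05. By that rule 40.3% of all genes tested rose in TBP-F207L, 41.0% in TBP-Y185C and 37.5% in mot1-14, so a rise by itself was common on these arrays. A rise of 2-fold or more was less so. It was met by 5 of the 10 genes in TBP-F207L, 6 in TBP-Y185C and 4 in mot1-14. Of all genes tested, 4.97%, 6.42% and 4.49% met it in those strains in the same order. The fitted ratios include an offset added to every signal, which understates dim genes. From the deposited log ratios, which have no such offset, GPX1 also rose 2-fold or more in each mutant (log2 1.43, 2.08 and 1.86). So did CTA1 in TBP-Y185C (1.42) and CTT1 in mot1-14 (1.27), and no gene dropped out. The lower count in mot1-14 than in TBP-F207L therefore depends on the scale used. The share of all genes was not counted from those ratios. On single arrays, all 60 ratios of the 10 genes were above 0, the lowest being 0.17 and the highest 2.17 on the log2 scale. The mutants shared WT as their control, so the rises in the 3 mutants are not independent of each other.

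**Figure D1:**
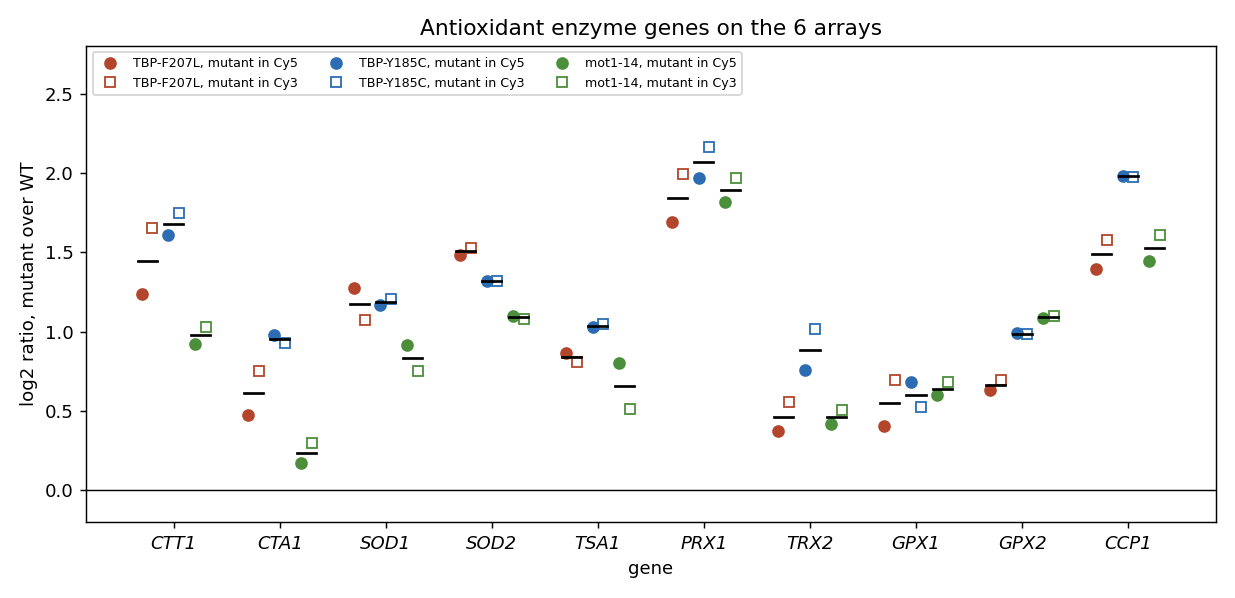
Log2 ratio of mutant over WT (vertical axis) of the 10 genes (horizontal axis) on each of the 6 arrays, with filled circles for arrays with the mutant in Cy5, open squares for those with the mutant in Cy3, and black bars for the fitted ratio. All 60 points lie above 0, the fitted ratio of PRX1 is the highest in each mutant, and CTA1 in mot1-14 stands lowest.

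Across the 6 arrays, signal stood above local background by a median ratio of 8.05 to 22.7 in red and 6.74 to 10.8 in green. The 2 arrays of a mutant, turned to mutant over WT, correlated across genes at r = 0.94 in TBP-F207L, 0.96 in TBP-Y185C and 0.93 in mot1-14. The strains were checked by the gene altered in each. SPT15, which encodes TBP, had log2 ratios of 3.64 and 3.62 on the 2 arrays of TBP-F207L, 4.28 and 3.87 on those of TBP-Y185C and -0.49 and -0.23 on those of mot1-14, and MOT1 had -1.74 and -3.41 in TBP-F207L, -3.73 and -3.28 in TBP-Y185C and 2.24 and 2.11 in mot1-14. Each slide held the arrays of 1 mutant, so slide and mutant cannot be told apart.

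Of the 10 genes, PRX1 had the largest ratio in every mutant. PRX1 (YBL064C) encodes the peroxiredoxin of the mitochondrial matrix. Its normalised signal, read from 1 spot, was 5821 and 5690.1 in TBP-F207L, against 1804 and 1427 in WT. It was 7737 and 7106 in TBP-Y185C, against 1975 and 1584 in WT, and 5268 and 5311 in mot1-14, against 1497 and 1359.8 in WT, the array with the mutant in Cy5 being given before the one with the mutant in Cy3, here and below. Every mutant signal was more than 2-fold above the WT signal of its array. The fitted log2 ratio was 1.84 in TBP-F207L, 2.07 in TBP-Y185C and 1.89 in mot1-14 (SE 0.04 each), or 3.59-fold, 4.19-fold and 3.71-fold over WT, with adjusted p-values of 1.28e-07, 8.62e-08 and 1.76e-07. This placed PRX1 at rank 49, 50 and 39 from the top of all genes tested in those strains in the same order. The mutants lay close together: TBP-F207L minus TBP-Y185C was -0.22 (95% interval -0.35 to -0.10, adjusted p = 0.0196), TBP-Y185C minus mot1-14 was 0.18 (95% interval 0.05 to 0.31, adjusted p = 0.0326), and TBP-F207L minus mot1-14, at -0.05 (95% interval -0.18 to 0.08), did not pass. Both of these calls were easily lost: the first failed in 7 of 16 alternative settings, also without the TBP-F207L array with the mutant in Cy5 (adjusted p = 0.0893) or either TBP-Y185C array (0.13 and 0.0823). The second failed in 10 of 16, also without any 1 of the TBP-Y185C and mot1-14 arrays (adjusted p = 0.0596 to 0.246).

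CCP1 (YKR066C), the cytochrome c peroxidase of the intermembrane space, had the second largest ratio in TBP-Y185C and mot1-14, and the third in TBP-F207L. Its log2 ratios on the 2 arrays were 1.40 and 1.58 in TBP-F207L, 1.98 and 1.98 in TBP-Y185C and 1.45 and 1.61 in mot1-14. The arrays of TBP-Y185C lay above those of both other mutants, whose values overlapped. The signal was 8724 and 9457 in TBP-Y185C, against 2208 and 2406 in WT. The fitted ratio of 1.98 in TBP-Y185C, or 3.94-fold, compares with 1.49 in TBP-F207L, or 2.8-fold, and 1.53 in mot1-14, or 2.88-fold (SE 0.04 each; the highest limma adjusted p of the 3 was 3.66e-07). TBP-F207L minus TBP-Y185C was -0.49 (95% interval -0.63 to -0.35, adjusted p = 0.0019) and TBP-Y185C minus mot1-14 was 0.45 (95% interval 0.31 to 0.59, adjusted p = 0.00126). TBP-F207L minus mot1-14, at -0.04 (95% interval -0.18 to 0.10), did not pass.

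**Figure D2:**
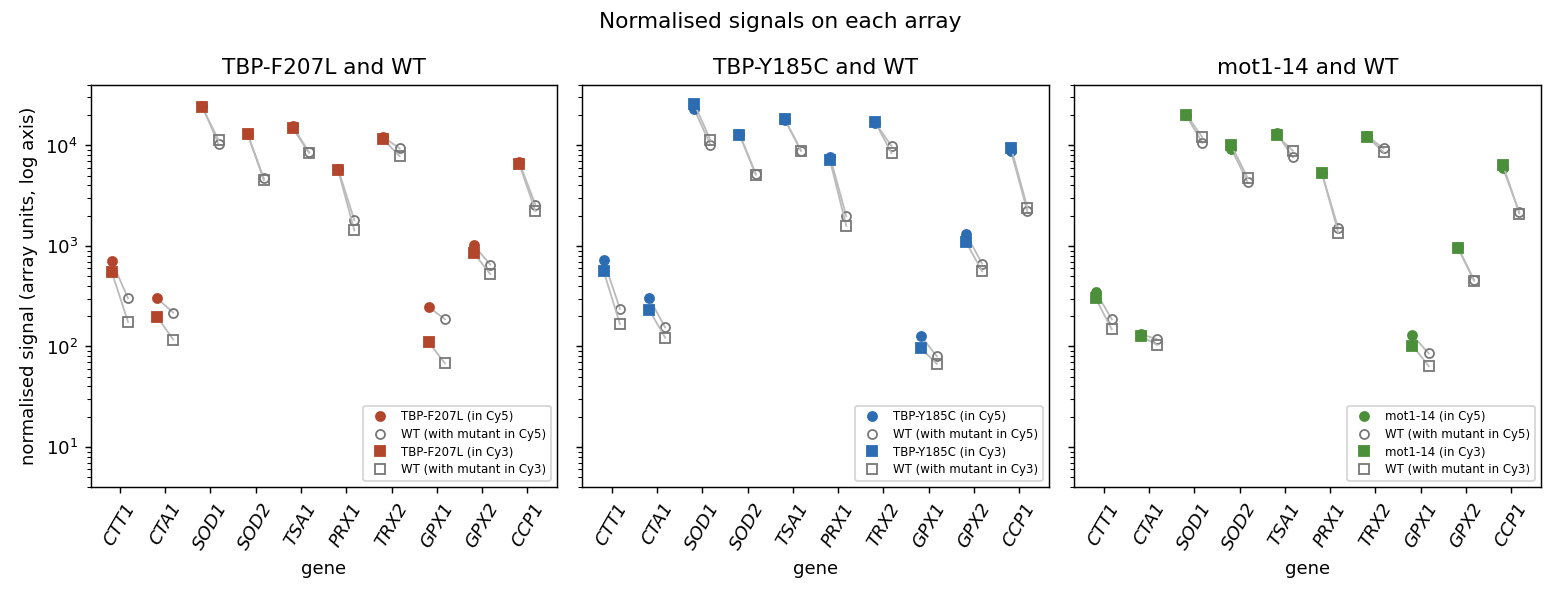
Normalised array signal on a log axis (vertical) of the 10 genes (horizontal), with a panel for each mutant, the mutant to the left and WT to the right of each pair, and a grey line joining the 2 channels of an array. Every line falls toward WT, and the signals of GPX1 and CTA1 lie nearest to the offset of 50 that every signal includes.

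Both catalase genes rose, and both differed between mutants. CTT1 (YGR088W) encodes the cytosolic catalase T, a much used reporter of general stress. Its signal was 709 and 552 in TBP-F207L, against 301 and 175 in WT, 722 and 561 in TBP-Y185C, against 236 and 167 in WT, and 352 and 302 in mot1-14, against 186 and 148 in WT. The log2 ratios on the 2 arrays were 1.24 and 1.65 in TBP-F207L, 1.61 and 1.75 in TBP-Y185C and 0.92 and 1.03 in mot1-14, so that both bypass strains lay above mot1-14 on each array and overlapped with each other. The fitted rise was 2.72-fold in TBP-F207L (log2 1.45), 3.2-fold in TBP-Y185C (log2 1.68) and 1.97-fold in mot1-14 (log2 0.98; SE 0.06 each). CTT1 was higher in TBP-F207L than in mot1-14 by 0.47 (95% interval 0.28 to 0.66, adjusted p = 0.0024) and higher in TBP-Y185C than in mot1-14 by 0.70 (95% interval 0.51 to 0.89, adjusted p = 0.000669). The difference of TBP-F207L minus TBP-Y185C, -0.23 (95% interval -0.42 to -0.04, adjusted p = 0.0574), did not pass, but did so at -0.38 without the TBP-F207L array with the mutant in Cy3 (adjusted p = 0.000769).

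CTA1 (YDR256C), the peroxisomal catalase A, had the lowest of the 30 fitted ratios, in mot1-14. Its log2 ratios on the 2 arrays were 0.48 and 0.75 in TBP-F207L, 0.98 and 0.93 in TBP-Y185C and 0.17 and 0.30 in mot1-14, with no overlap between the 3 mutants. The fitted ratio was 0.62 in TBP-F207L, 0.95 in TBP-Y185C and 0.23 in mot1-14 (SE 0.05 each; adjusted p = 3.8e-05, 3.99e-06 and 0.00649 by limma). The 3 mutants differed from each other in the order TBP-Y185C, TBP-F207L, mot1-14: TBP-F207L minus TBP-Y185C was -0.34 (95% interval -0.52 to -0.15, adjusted p = 0.0159), TBP-F207L minus mot1-14 was 0.38 (95% interval 0.20 to 0.57, adjusted p = 0.00509), and TBP-Y185C minus mot1-14 was 0.72 (95% interval 0.54 to 0.90, adjusted p = 0.000551). The first of these did not pass without the TBP-Y185C array with the mutant in Cy5, at -0.21 (adjusted p = 0.123). The rise in mot1-14 rests on both of its arrays. With the first left out its adjusted p was 0.0633 and with the second left out 0.0726. The probe is dim, with signals of 133 and 127 in mot1-14, against 118 and 104 in WT. They were 302 and 197 in TBP-F207L, against 217 and 117 in WT. In TBP-Y185C they were 305 and 233, against 155 and 122 in WT. The mutant signals of these 2 strains were thus close on the arrays with the mutant in Cy5, where the WT signals differed. The offset of 50 added to every signal brings such ratios nearer to 0 by construction. From the deposited log ratios, which have no such offset, CTA1 was 0.91 in TBP-F207L, 1.42 in TBP-Y185C and 0.46 in mot1-14, and neither TBP-F207L minus TBP-Y185C (-0.51, adjusted p = 0.0597) nor TBP-F207L minus mot1-14 (0.45, adjusted p = 0.0501) passed.

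Both superoxide dismutase genes rose in each mutant. With loess normalization they rose more in the bypass strains than in mot1-14, but none of those 4 differences passed with each array centred on its median in place of loess. Here and below, p-values with median centring rest on a spread taken as nearly the same for all genes, and do not measure a gene's own spread. SOD1 (YJR104C) encodes the copper-zinc enzyme of the cytosol and intermembrane space. Its signals were 24726 and 23878 in TBP-F207L, against 10228 and 11348 in WT, 22844 and 25988 in TBP-Y185C, against 10148 and 11287 in WT, and 19984 and 20318 in mot1-14, against 10579 and 12049.7 in WT. The fitted log2 ratio was 1.17 in TBP-F207L, 1.19 in TBP-Y185C and 0.84 in mot1-14 (SE 0.05 each), or 2.26-fold, 2.28-fold and 1.78-fold. SOD1 was higher than in mot1-14 by 0.34 (95% interval 0.18 to 0.49, adjusted p = 0.0044) in TBP-F207L and by 0.35 (95% interval 0.19 to 0.51, adjusted p = 0.00481) in TBP-Y185C, and TBP-F207L minus TBP-Y185C was -0.01 (95% interval -0.17 to 0.14). With median centring, SOD1 was 0.62 in TBP-F207L, 0.89 in TBP-Y185C and 0.71 in mot1-14, and TBP-F207L minus mot1-14 turned to -0.0869 (adjusted p = 0.543), while TBP-Y185C minus mot1-14 was 0.18 (adjusted p = 0.212).

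SOD2 (YHR008C), the manganese enzyme of the mitochondrial matrix, had log2 ratios of 1.48 and 1.53 on the arrays of TBP-F207L, 1.32 and 1.32 on those of TBP-Y185C and 1.10 and 1.08 on those of mot1-14. The arrays of a pair were within 0.05 of each other and those of different mutants did not overlap. The signal was 13142 and 12972 in TBP-F207L, against 4699 and 4498 in WT, and 9237 and 10039.9 in mot1-14, against 4311 and 4749 in WT. The fitted fold over WT was 2.84 in TBP-F207L, 2.5 in TBP-Y185C and 2.13 in mot1-14 (log2 SE 0.03 each; highest adjusted p 4.96e-07 by limma). SOD2 was the only one of the 10 genes called higher in TBP-F207L than in TBP-Y185C, by 0.19 (95% interval 0.07 to 0.30, adjusted p = 0.0221). That difference was -0.00285 with median centring, and its adjusted p was 0.0761 without the TBP-F207L array with the mutant in Cy3, and 0.113 and 0.112 without either TBP-Y185C array. SOD2 was higher than in mot1-14 by 0.42 (95% interval 0.30 to 0.53, adjusted p = 0.000437) in TBP-F207L and by 0.23 (95% interval 0.12 to 0.34, adjusted p = 0.00678) in TBP-Y185C. The second of these did not pass without the TBP-Y185C array with the mutant in Cy5 (adjusted p = 0.0557) or the mot1-14 array with the mutant in Cy3 (0.0672). With median centring they were 0.16 in TBP-F207L (adjusted p = 0.225) and 0.17 in TBP-Y185C (adjusted p = 0.237).

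The cytosolic peroxiredoxin and a thioredoxin that serves it rose in each mutant too. TSA1 (YML028W) encodes the main cytosolic peroxiredoxin, which also serves as a chaperone. Its log2 ratios were 0.86 and 0.81 on the arrays of TBP-F207L, 1.03 and 1.05 on those of TBP-Y185C and 0.80 and 0.51 on those of mot1-14, the pair that lay furthest apart of the 3. The signal was 18114 and 18261 in TBP-Y185C, against 8869 and 8845 in WT. The fitted rise was 1.79-fold in TBP-F207L, 2.05-fold in TBP-Y185C and 1.58-fold in mot1-14 (log2 0.84, 1.04 and 0.66, SE 0.05 each). TSA1 was higher in TBP-Y185C than in mot1-14 by 0.38 (95% interval 0.20 to 0.56, adjusted p = 0.0063), a call lost without the TBP-Y185C array with the mutant in Cy3 (adjusted p = 0.0601). TBP-F207L minus TBP-Y185C, -0.20 (95% interval -0.38 to -0.02, adjusted p = 0.0795), and TBP-F207L minus mot1-14, 0.18 (95% interval -0.00093 to 0.36, adjusted p = 0.0803), did not pass. Leaving out the mot1-14 array with the mutant in Cy5 brought the second to 0.32 (adjusted p = 0.0137), and leaving out the TBP-F207L array with the mutant in Cy5 to 0.22 (0.0431). The first passed without either mot1-14 array (adjusted p = 0.0335 each) and without the TBP-F207L array with the mutant in Cy3 (0.0436). With median centring the rise in TBP-F207L was 0.39, TBP-F207L minus TBP-Y185C passed at -0.40 (adjusted p = 0.00342), and TBP-Y185C minus mot1-14 did not, at 0.25 (adjusted p = 0.0701).

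TRX2 (YGR209C) encodes a cytosolic thioredoxin, which returns oxidised peroxiredoxins to their reduced form. Its log2 ratios were 0.37 and 0.56 in TBP-F207L, 0.76 and 1.01 in TBP-Y185C and 0.42 and 0.51 in mot1-14. The values of TBP-F207L and mot1-14 overlapped and those of TBP-Y185C lay above both. The signal was 16724 and 16948 in TBP-Y185C, against 9878 and 8391 in WT, and 12104 and 11488 in TBP-F207L, against 9350.3 and 7816 in WT. The fitted ratio was 0.46 in TBP-F207L, 0.89 in TBP-Y185C and 0.46 in mot1-14 (SE 0.04 each; highest limma adjusted p 3.64e-05). TBP-F207L minus TBP-Y185C was -0.42 (95% interval -0.55 to -0.29, adjusted p = 0.00229), TBP-Y185C minus mot1-14 was 0.42 (95% interval 0.29 to 0.56, adjusted p = 0.00112), and TBP-F207L minus mot1-14 was 0.002 (95% interval -0.13 to 0.13). The call in TBP-F207L was lost with median centring, where the ratio was 0.06 (adjusted p = 0.517) and TBP-F207L minus mot1-14 passed at -0.30 (adjusted p = 0.0201).

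Both glutathione peroxidase genes rose in each mutant, and GPX2 was lower in TBP-F207L than in either other mutant. GPX2 (YBR244W), which encodes an enzyme that takes its electrons from thioredoxin in yeast, rose 1.58-fold in TBP-F207L, 1.98-fold in TBP-Y185C and 2.13-fold in mot1-14 (log2 0.66, 0.99 and 1.09, SE 0.03 each). Its log2 ratios were 0.63 and 0.69 on the arrays of TBP-F207L, 0.99 and 0.98 on those of TBP-Y185C and 1.09 and 1.10 on those of mot1-14, with no overlap between mutants. It was the only one of the 10 genes called lower in TBP-F207L than in mot1-14, with a difference of -0.43 (95% interval -0.54 to -0.32, adjusted p = 0.000389), and it was lower in TBP-F207L than in TBP-Y185C, with a difference of -0.32 (95% interval -0.44 to -0.21, adjusted p = 0.00328). TBP-Y185C minus mot1-14, -0.11 (95% interval -0.22 to 0.01, adjusted p = 0.101), did not pass. The signal was 1013 and 849.6 in TBP-F207L, against 654 and 525 in WT, and 978 and 963 in mot1-14, against 460.2 and 449.8 in WT.

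GPX1 (YKL026C), a paralog of GPX2, gave a dim signal. It was 247 and 110.4 in TBP-F207L, against 187 and 68 in WT, 128 and 96.6 in TBP-Y185C, against 79.9 and 67.2 in WT, and 129 and 102 in mot1-14, against 85.3 and 63.7 in WT. On the TBP-F207L array with the mutant in Cy5, both channels were brighter than on the other arrays. The fitted log2 ratio was 0.55 in TBP-F207L, 0.60 in TBP-Y185C and 0.64 in mot1-14 (SE 0.07 each; adjusted p = 0.00024, 0.00014 and 0.00013 by limma). No difference between mutants passed, and the intervals ran from -0.32 to 0.15 for TBP-F207L minus mot1-14, from -0.27 to 0.20 for TBP-Y185C minus mot1-14 and from -0.29 to 0.18 for TBP-F207L minus TBP-Y185C. Without the TBP-F207L array with the mutant in Cy3, TBP-F207L minus mot1-14 passed at -0.26 (adjusted p = 0.0166) and TBP-F207L minus TBP-Y185C at -0.22 (adjusted p = 0.0463). From the deposited log ratios the rise was 1.43 in TBP-F207L, 2.08 in TBP-Y185C and 1.86 in mot1-14. With median centring it was 0.39 in TBP-Y185C, and TBP-Y185C minus mot1-14 passed at -0.33 (adjusted p = 0.0128).

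**Figure D3:**
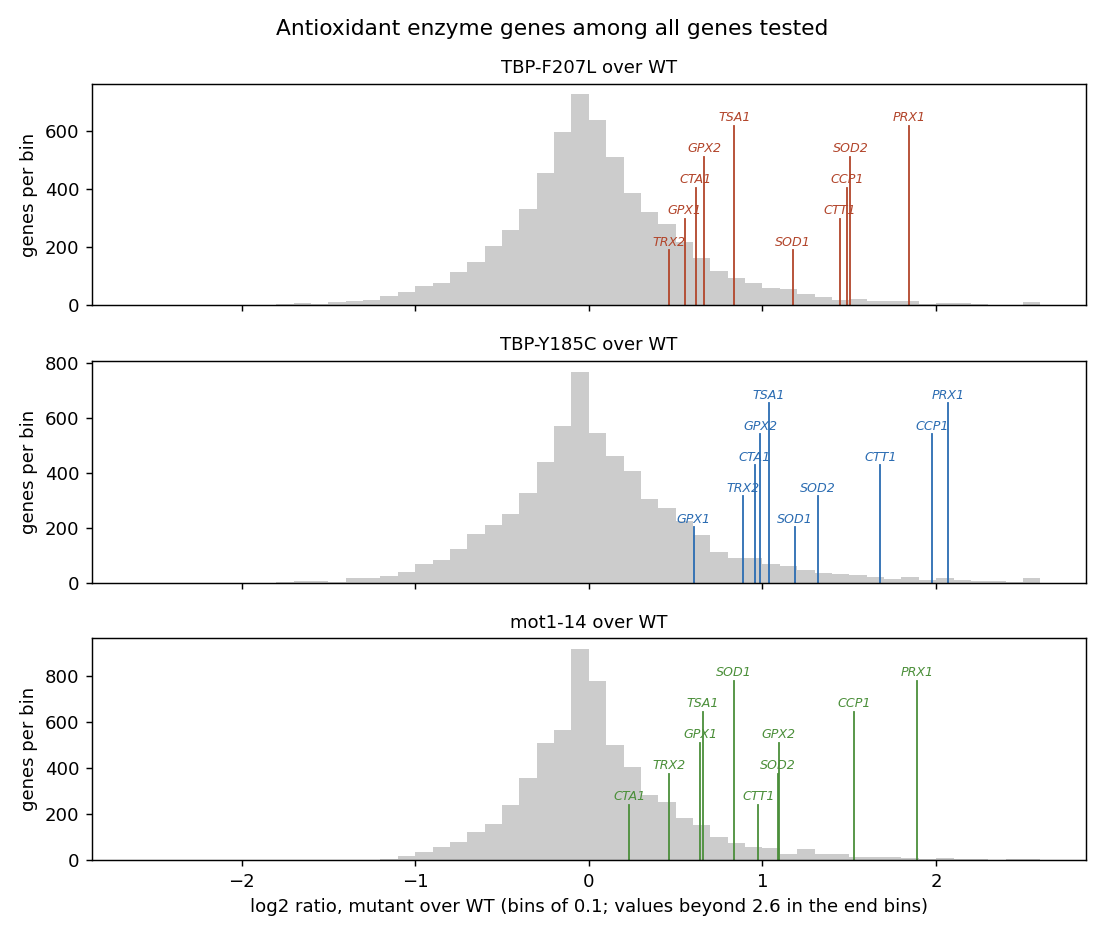
Number of genes (vertical axis) by log2 ratio of mutant over WT (horizontal axis, bins of 0.1) over all genes tested, with a panel for each mutant and the 10 genes marked by coloured lines whose heights only separate the labels. All 10 lines lie right of 0 in each panel, from 0.46 to 1.84 in TBP-F207L, 0.60 to 2.07 in TBP-Y185C and 0.23 to 1.89 in mot1-14.

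Of the 10 genes, 8 were called higher in TBP-Y185C than in mot1-14 and the other 2, GPX1 and GPX2, did not pass, with a median difference of 0.37. Over all genes tested, 26.0% were called higher and 23.8% lower in that comparison. Between TBP-F207L and mot1-14, both catalase and both dismutase genes were higher in TBP-F207L, GPX2 was lower and 5 genes did not pass (median 0.09), against 29.0% higher and 29.3% lower over all genes. Between TBP-F207L and TBP-Y185C, SOD2 was higher in TBP-F207L, 5 genes (CTA1, PRX1, TRX2, GPX2 and CCP1) were lower and 4 did not pass (median -0.23), against 15.4% higher and 21.8% lower. No difference between mutants in any of the 10 genes reached 2-fold. These counts lean on the fit, as did those over all genes. Without a term for the dye effect of each probe, TBP-F207L and TBP-Y185C differed in none of the 10 genes. Few genes of any kind did so there: 29 of 6231 tested were called higher and 86 lower in TBP-F207L. At an unadjusted p under 0.05 in limma, 4 of the 10 genes were lower and 1 higher in TBP-F207L in that fit. TBP-Y185C was higher than mot1-14 in 3 without the dye term, beside 540 of 6126 genes tested. With median centring TBP-Y185C was higher than mot1-14 in 4, beside 1341 of 6126. Of the 19 differences called in all, 5 passed without the dye term: CTT1, CTA1 and CCP1 between TBP-Y185C and mot1-14, and SOD2 and GPX2 between TBP-F207L and mot1-14. With single arrays left out, the number of genes called varied, among these 10 and among all genes tested. Those counts are not given, since a mutant then has 1 array. TBP-F207L minus TBP-Y185C then ran from -0.46 to -0.21 for CTA1, -0.29 to -0.16 for PRX1 and -0.48 to -0.36 for TRX2. It ran from -0.35 to -0.29 for GPX2, -0.58 to -0.40 for CCP1 and 0.16 to 0.21 for SOD2.

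**Figure D4:**
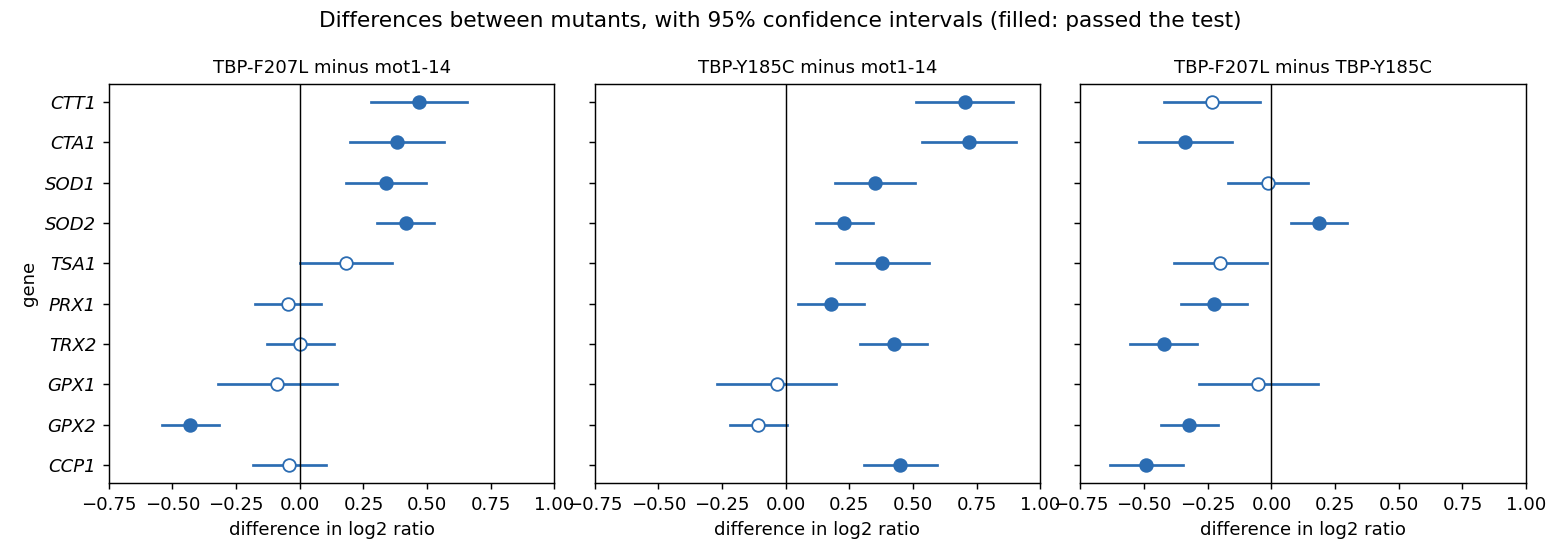
Difference in log2 ratio between mutants (horizontal axis) for each of the 10 genes (vertical axis), with a panel for each pair and lines for 95% confidence intervals, filled circles marking differences that passed the test. In the panel of TBP-Y185C minus mot1-14, 8 circles are filled and lie right of 0, and in that of TBP-F207L minus TBP-Y185C, 5 filled circles lie left of 0.

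The genes around these enzymes did not move as one. Of 51 further genes in 9 lists (peroxidases, thioredoxins, glutaredoxins, glutathione, sulfur repair, dismutase metals, NADPH, heme and regulators), 26 rose and 21 fell in TBP-F207L, 29 rose and 15 fell in TBP-Y185C, and 23 rose and 17 fell in mot1-14. Of all genes tested, 40.3% rose and 38.8% fell in TBP-F207L, 41.0% and 38.8% in TBP-Y185C, and 37.5% and 35.2% in mot1-14. The counts of single lists below stand beside these same shares, and a mix of rises and falls does not set a small list apart. The median log2 ratio over the 51 genes was 0.16, 0.13 and 0.04 in these strains.

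Among the other peroxidases, TSA2, the stress-induced paralog of TSA1, rose in all 3 mutants, with log2 ratios of 0.99 in TBP-F207L, 1.38 in TBP-Y185C and 0.68 in mot1-14 (SE 0.04 each). Its signal is dim, and the deposited log ratios gave 1.24, 1.67 and 0.90. Whether the probes of the close paralogs TSA1 and TSA2, or TRX1 and TRX2, share signal was not tested. The difference of TBP-F207L minus TBP-Y185C was -0.39 (95% interval -0.52 to -0.27, adjusted p = 0.00239) for TSA2. AHP1, a thiol-specific peroxiredoxin, was at 0.34, 0.37 and 0.21, but with median centring it turned to -0.31 in TBP-F207L and did not pass in TBP-Y185C (0.01) or mot1-14 (0.06). Without the mot1-14 array with the mutant in Cy3, AHP1 in mot1-14 did not pass either (adjusted p = 0.0845). HYR1, the glutathione peroxidase paralog that senses peroxide for Yap1, rose in TBP-Y185C (0.13) and mot1-14 (0.34), and was at 0.08 in TBP-F207L, which did not pass (adjusted p = 0.131 by limma). Its call in TBP-Y185C was lost without the TBP-Y185C array with the mutant in Cy3, at 0.06 (adjusted p = 0.421), and from the deposited log ratios. DOT5, a nuclear peroxiredoxin, fell by 0.22 in mot1-14 and was at -0.03 in TBP-F207L and -0.04 in TBP-Y185C, neither of which passed. From the deposited log ratios DOT5 passed in TBP-Y185C, at -0.12 (adjusted p = 0.0356 by limma).

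In the thioredoxin system, members rose and fell. The mitochondrial thioredoxin TRX3 rose by 1.19 in TBP-F207L, 1.57 in TBP-Y185C and 1.23 in mot1-14 (SE 0.05 each). The cytosolic pair TRX1 and TRX2 went opposite ways: TRX1 had log2 ratios of -0.46 and -0.60 on the arrays of TBP-F207L, -0.46 and -0.51 on those of TBP-Y185C and -0.28 and -0.45 on those of mot1-14, all below 0, where all of TRX2 lay above 0. TRR1, the cytosolic thioredoxin reductase that recharges both, fell by 1.03, 0.85 and 0.60 in the same order of strains (SE 0.03 each). Its mitochondrial paralog TRR2 rose in TBP-F207L (0.30) and TBP-Y185C (0.56), and was at 0.005 in mot1-14, which did not pass. The difference of TRR2 in TBP-Y185C minus mot1-14 was 0.55 (95% interval 0.44 to 0.67, adjusted p = 0.00025).

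Of the 8 glutaredoxin genes, all 8 rose in TBP-F207L, 7 in TBP-Y185C and 6 in mot1-14, and the rest did not pass. The list's median log2 ratio was 0.61 in TBP-F207L, 0.78 in TBP-Y185C and 0.74 in mot1-14. The largest rises were those of GRX2 (1.28, 1.71 and 1.34, SE 0.06), GRX1 (1.22, 1.33 and 1.29, SE 0.03) and GRX5 (1.17, 1.23 and 1.08, SE 0.04), in the same order of strains. GRX1 and GRX2 encode the classical small glutaredoxins, and GRX5 a mitochondrial one needed for iron-sulfur clusters. Of the genes for repair of oxidised sulfur, SRX1, the sulfiredoxin that rescues over-oxidised peroxiredoxins, rose by 0.73, 1.21 and 1.03 from a dim signal, and by 1.29, 2.40 and 2.19 from the deposited log ratios. MXR2, the mitochondrial methionine sulfoxide reductase, rose by 1.26, 1.37 and 1.58. MXR1, its cytosolic counterpart, fell by 0.24 in TBP-F207L, rose by 0.13 in TBP-Y185C and was at 0.0013 in mot1-14, which did not pass. The call in TBP-Y185C held in 10 of 18 alternatives and was lost without either TBP-Y185C array (adjusted p = 0.0691 and 0.0929).

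Both genes of glutathione synthesis fell. GSH2, glutathione synthetase, fell by 0.93 in TBP-F207L, 1.22 in TBP-Y185C and 0.62 in mot1-14 (SE 0.03 each), and GSH1, which makes its substrate, by 0.52, 0.37 and 0.71. The transferase genes GTT1 and GTT2 diverged: GTT1 rose by 0.94, 1.14 and 0.83, and GTT2 fell by 1.23, 0.95 and 1.43. Of the 8 genes in the list, 3 rose and 4 fell in TBP-F207L, 4 rose and 3 fell in TBP-Y185C, and 2 rose and 3 fell in mot1-14.

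Of the 3 genes that supply metal to the dismutases, 2 fell in every mutant. CCS1, the chaperone that gives copper to Sod1, fell by 1.36 in TBP-F207L, 1.40 in TBP-Y185C and 0.88 in mot1-14 (SE 0.05 each; highest limma adjusted p 5.03e-06), while SOD1 rose in each. On single arrays CCS1 was at -1.38 and -1.34 in TBP-F207L, -1.46 and -1.35 in TBP-Y185C and -1.04 and -0.73 in mot1-14, all below 0. TBP-F207L minus mot1-14 was -0.48 (95% interval -0.64 to -0.31, adjusted p = 0.00121) and TBP-Y185C minus mot1-14 was -0.52 (95% interval -0.68 to -0.35, adjusted p = 0.00127) for CCS1. MTM1, a mitochondrial carrier needed for active Sod2, fell by 0.53, 0.43 and 0.37 in the same order of strains. SMF2, a manganese transporter, rose by 0.16 in TBP-F207L and 0.17 in TBP-Y185C, and was at 0.04 in mot1-14, which did not pass. Its calls were lost without the TBP-F207L array with the mutant in Cy3, at 0.06 in TBP-F207L, and without the TBP-Y185C array with the mutant in Cy5, at 0.09 in TBP-Y185C.

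For the supply of NADPH, ZWF1, glucose-6-phosphate dehydrogenase, rose by 0.88 in TBP-F207L, 1.27 in TBP-Y185C and 0.62 in mot1-14, and GND1, phosphogluconate dehydrogenase, by 0.95, 0.99 and 0.87. POS5, the mitochondrial NADH kinase, fell by 0.33, 0.45 and 0.27, and by 0.51, 0.68 and 0.44 from the deposited log ratios. Heme is the cofactor of both catalases and of cytochrome c peroxidase, and the 8 genes of its synthesis were mixed: 3 rose and 5 fell in TBP-F207L, 4 rose and 3 fell in TBP-Y185C, and 5 rose and 2 fell in mot1-14. HEM3, porphobilinogen deaminase, fell by 1.16, 1.28 and 0.62 and HEM12, uroporphyrinogen decarboxylase, by 0.69, 0.77 and 0.54. HEM13, the oxygen-dependent coproporphyrinogen oxidase, rose by 0.48, 0.82 and 1.12, and here TBP-F207L minus mot1-14 was -0.64 (95% interval -0.76 to -0.52, adjusted p = 0.000126). HEM2, porphobilinogen synthase, rose by 0.24, 0.48 and 0.59, and HEM14, protoporphyrinogen oxidase, by 0.50, 0.45 and 0.35.

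Of 10 genes for regulators of antioxidant genes, 3 rose and 6 fell in TBP-F207L, 3 rose and 4 fell in TBP-Y185C, and 2 rose and 6 fell in mot1-14. MSN4, a general stress activator, rose by 0.44 in TBP-F207L, 0.65 in TBP-Y185C and 0.99 in mot1-14 (SE 0.03 each). TBP-F207L minus mot1-14 was -0.54 (95% interval -0.66 to -0.43, adjusted p = 0.000176) and TBP-Y185C minus mot1-14 was -0.34 (95% interval -0.46 to -0.23, adjusted p = 0.00163). In TBP-F207L minus mot1-14, 4 of the 10 enzyme genes were called with the opposite sign, 1 (GPX2) with the same sign, and 5 did not pass. In TBP-Y185C minus mot1-14, 8 were called with the opposite sign and 2 did not pass. Whether MSN4 and these genes are linked was not tested. Its partner MSN2 fell by 0.35 in mot1-14, and was at -0.06 in TBP-Y185C, which did not pass. From the deposited log ratios MSN2 passed in TBP-Y185C, at -0.14 (adjusted p = 0.0307 by limma). In TBP-F207L it passed at -0.10, but its arrays gave -0.20 and 0.00072 and the call held in 9 of 18 alternatives, failing without the TBP-F207L array with the mutant in Cy5 (adjusted p = 0.418) or either TBP-Y185C array (0.0594 each). YAP1, the peroxide-sensing activator, rose by 0.61 in TBP-F207L and 0.38 in TBP-Y185C and fell by 0.20 in mot1-14, a call lost without the mot1-14 array with the mutant in Cy3 (adjusted p = 0.0701). SKN7, which acts beside Yap1, fell by 0.36, 0.30 and 0.21, and STB5, an activator of NADPH genes, by 0.12, 0.25 and 0.22. The call of STB5 in TBP-F207L was lost without either TBP-F207L array (adjusted p = 0.0609 and 0.0928), and from the deposited log ratios STB5 was at -0.19, -0.41 and -0.36 and SKN7 in mot1-14 at -0.32. ADR1, an activator of CTA1 and other genes off glucose, rose by 0.49, 0.24 and 0.20.

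**Figure D5:**
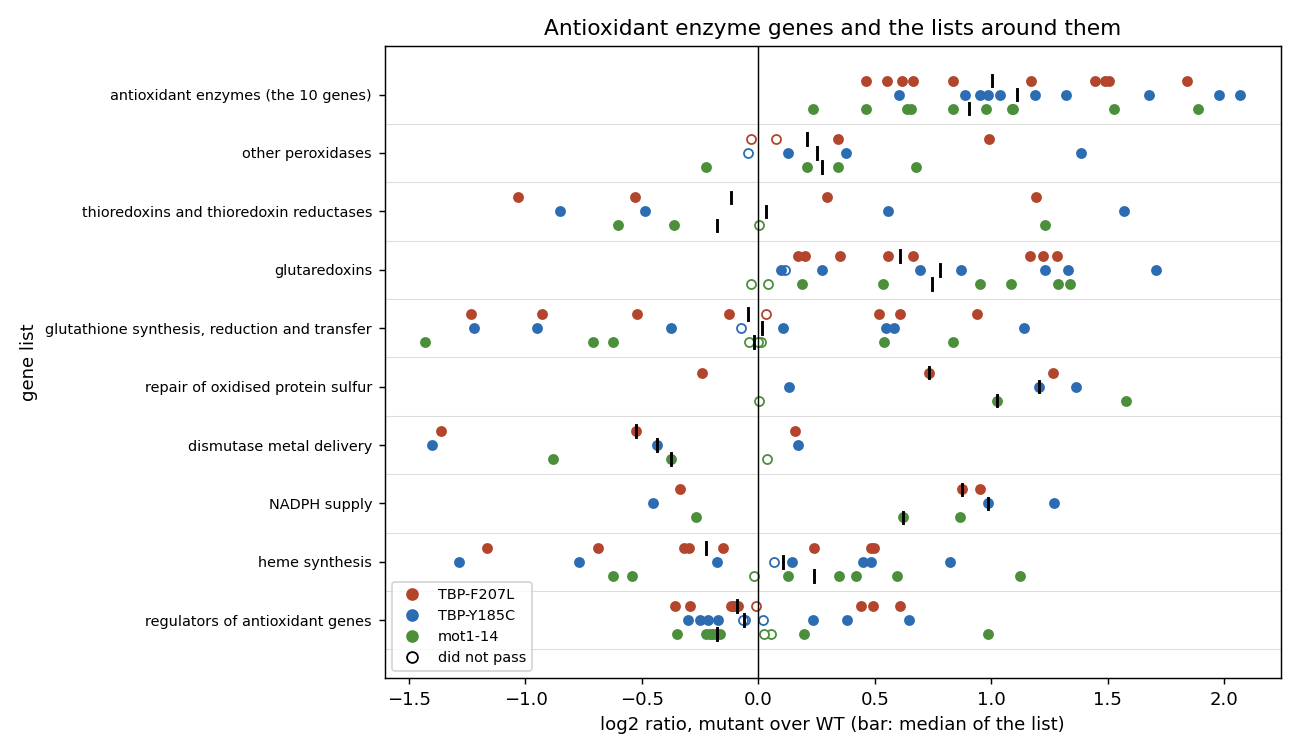
Log2 ratio of mutant over WT (horizontal axis) of each gene in the 10 antioxidant enzymes and the 9 lists around them (vertical axis), with a row of points for each mutant, open points for genes that did not pass and black bars for each list's median. The antioxidant enzymes and the glutaredoxins lie almost wholly right of 0, whereas most of the other lists have points on both sides of it.

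The genes whose pattern over the 6 arrays was nearest to that of PRX1, the gene of the 10 with the largest mean ratio, were TFS1, GOR1, YPC1, FMP46 and HSP82. Nearness was the Euclidean distance between the 6 log2 ratios, over 6125 candidate genes, and the 5 distances were 0.19 for TFS1, 0.20 for GOR1, 0.24 for YPC1, 0.29 for FMP46 and 0.37 for HSP82. TFS1 had log2 ratios of 1.75 in TBP-F207L, 2.05 in TBP-Y185C and 1.89 in mot1-14. GOR1 had 1.86, 2.12 and 1.81. None of the other 9 antioxidant genes was among them, but with 5 places for 6125 candidates that says little about these 9. The distance also reflects the size of the ratios. The mean ratio was 1.93 for PRX1 and 1.66 for CCP1, the next largest of the 10.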

How the data were processed

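Scanner output came from Agilent Feature Extraction 7.5.1, per the file headers. The files hold mean and local background intensity of 10807 spots in each channel, not background-subtracted, per the file headers. Beside them stand processed intensities, which are background-subtracted and dye-normalized, the deposited log10 ratio of red over green, and a deposited p-value per spot from that software's error model. In the authors' series table, log2 ratios run red over green and are not turned to mutant over WT nor centred (column medians -0.0258 to 0.0247). It matched the error-weighted mean of unmarked spots within 0.001 for 100% of probes. Genome build and probe sequences are not given in the sources used here, so no coordinate or sequence is printed.

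Background correction of mean signals used normexp (offset 50), followed by loess within each array (limma 3.58.1, R 4.3.3). The 544 control spots had weight 0. Spots marked as outliers, 0.0195% to 3.22% of an array's gene spots, were left out, and spots of a probe averaged. A probe was tested if 2 or more arrays had it well above background in red or green. One model over 6 arrays held a dye intercept and a coefficient for each mutant, with 2 residual and 4.81 prior degrees of freedom. Benjamini-Hochberg adjustment ran over all genes tested, at 0.05, and adjusted p-values are from this limma model unless another setting is named, when they are from the fit under that setting. With median centring, limma's adjusted p was as small as 7.89e-147 (PRX1 in TBP-Y185C). From 6 arrays, so small a value means that the spread was taken as nearly the same for all genes. Calls with median centring are therefore not on the same footing as those of the main fit. Log2 ratios are on the scale of signal plus offset, which understates dim genes. Levels of different genes are not compared. Names came from the array and a RefSeq table of assembly R64. The fit was tested on simulated data. Named from each list were up to 3 genes with the largest absolute log2 ratio among those called with the same sign on both arrays, near paralogs of the enzymes and, for the enzyme gene with the largest mean ratio, its 5 nearest patterns; DOT5, HYR1, MXR1 and SMF2 are named where they did not pass to account for small lists. The 10 genes, the lists and the tests were chosen with earlier results of these data known. The alternatives tried were other background correction, dye normalization, scaling, filters, models and tests, and leaving out each array.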

Additional observations from a re-analysis of the deposited data

Results flagged for a closer look

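A difference between mutants passed the test of the difference itself in 19 of 30 cases over the 10 genes. For TBP-F207L minus mot1-14 the log2 differences were 0.47 for CTT1, 0.38 for CTA1, 0.34 for SOD1, 0.42 for SOD2 and -0.43 for GPX2. For TBP-Y185C minus mot1-14 they were 0.70 for CTT1, 0.72 for CTA1, 0.35 for SOD1, 0.23 for SOD2, 0.38 for TSA1, 0.18 for PRX1, 0.42 for TRX2 and 0.45 for CCP1. For TBP-F207L minus TBP-Y185C they were -0.34 for CTA1, 0.19 for SOD2, -0.22 for PRX1, -0.42 for TRX2, -0.32 for GPX2 and -0.49 for CCP1. Each mutant was on a slide of its own, so slide and mutant cannot be told apart in these differences.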

How the results depend on the processing

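Under 18 alternatives, the log2 ratios of the 10 genes against WT stayed above 0 throughout, and 524 of 540 repeated calls held. The 16 lost calls were 9 under limma's treat test against a 1.5-fold change, 4 with the deposited p-values (CTA1, GPX1 and TRX2 in TBP-F207L, and CTA1 in mot1-14), TRX2 in TBP-F207L with median centring, and CTA1 in mot1-14 without either of its arrays. Treat left 6 genes higher in TBP-F207L, 9 in TBP-Y185C and 6 in mot1-14, beside 559 of 6232, 669 of 6231 and 471 of 6127 genes tested. Of the 304 repeats of a called difference between mutants, 240 held, 62 lost the call and 2 turned. Treat called 0 of the 10 genes in each of the 3 pairs, and 0 at an unadjusted p under 0.05. It called few genes of any kind there, so this does not set the 10 genes apart. Of all genes tested, 45 of 6126 were higher and 44 lower in TBP-Y185C minus mot1-14. In TBP-F207L minus mot1-14, 44 of 6127 were higher and 120 lower, and in TBP-F207L minus TBP-Y185C, 2 of 6231 were higher and 10 lower. With median centring, TBP-Y185C minus mot1-14 had 4 higher and 1 lower, TBP-F207L minus mot1-14 had 2 higher and 2 lower, and TBP-F207L minus TBP-Y185C had 0 higher (0 at an unadjusted p under 0.05 in limma). Over all genes tested, median centring called 1341 of 6126 higher and 984 lower, 1453 of 6127 higher and 1362 lower, and 470 of 6231 higher in these pairs. There SOD1 turned to -0.0869 in TBP-F207L minus mot1-14, SOD2 to -0.00285 in TBP-F207L minus TBP-Y185C and AHP1 to -0.31 in TBP-F207L; the cause was not tested. Without a dye intercept the pairs had 3 higher in TBP-Y185C minus mot1-14, 1 higher in TBP-F207L minus mot1-14, and 0 higher and 0 lower in TBP-F207L minus TBP-Y185C (1 and 4 at an unadjusted p under 0.05 in limma). Over all genes tested, that fit called 540 of 6126 and 745 of 6127 higher, and 29 higher and 86 lower of 6231, in the same order of pairs. With the deposited log ratio and with the authors' series table, TBP-F207L minus TBP-Y185C had 0 higher (1 at an unadjusted p under 0.05 in limma) and 3 lower. Of 6231 genes tested, 608 and 624 were higher and 800 and 833 lower in these fits. Leaving out single arrays gave 0 to 1 higher and 3 to 8 lower in TBP-F207L minus TBP-Y185C, the highest count of 8 coming without the TBP-F207L array with the mutant in Cy3 and the lowest without the TBP-Y185C array with the mutant in Cy5, and 1 to 2 lower in TBP-F207L minus mot1-14; a mutant left with 1 array was assumed to vary like the others. Of the 51 genes in lists, 26, 29 and 23 were higher and 21, 15 and 17 lower in TBP-F207L, TBP-Y185C and mot1-14 as reported. Treat called 9, 12 and 11 higher and 5, 5 and 2 lower. Over all genes tested it called 559 of 6232, 669 of 6231 and 471 of 6127 higher, and 386, 378 and 188 lower. The deposited p-values called 15 of the 51 higher in TBP-F207L and 18 in TBP-Y185C, beside 937 and 1331 of all genes. They called 9 lower in TBP-F207L and in mot1-14, beside 924 and 954 of all genes. The fit without a dye intercept called 12 lower in TBP-F207L, beside 1757 of 6232 genes. Aquantile scaling leaves ratios as they are by construction, so its repeats could not lose a call. Leaving out an array of another mutant also leaves a mutant's ratio unchanged and alters only its p-value. The series table holds averages of the deposited log ratios, so these are not separate checks. The totals of held calls above include all of these repeats and so overstate how far the calls were tested. Slide as a block was not run, since each slide held 1 mutant. No paired analysis was possible because the number of an array stands for its dye orientation and pairs no samples. Loess sets the typical gene of each array to 0, so changes are relative to it. Low signal limits the values of GPX1, CTA1 and CTT1 and, in the lists, of SRX1 and TSA2 among others.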
